A study of Mus musculus with 21 samples.

Results

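Zfp534, Zfp979, Zfp987 and Zfp758 are 4 zinc finger genes among 24458 genes measured in mouse embryoid bodies, the aggregates in which embryonic stem cells (ESCs) differentiate. They were chosen by their day 6 values: of 324 genes named Zfp and a number that averaged at least 1 FPKM in day 6 wild type embryoid bodies, they kept the smallest shares of the wild type level in knockout embryoid bodies. FPKM counts the sequenced fragments of a transcript, corrected for its length and for library depth. The day 6 values of these genes are therefore a description and carry no test. The tests concern differences on days 0 and 3, which are other libraries than those the choice used. The spread that enters these tests was estimated per gene over the libraries of all days. It therefore includes the day 6 libraries used for the choice.

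The cells were knockout or wild type for Cxxc5, also called Rinf, a gene for a DNA-binding protein with a CXXC zinc finger. Both genotypes were V6.5 ESC lines of mixed 129/C57BL/6 background, with 2 independent lines of each. Embryoid bodies were grown by hanging drop and sampled on days 0, 3 and 6, so that 6 groups of 2 libraries were compared. Undifferentiated ESCs of both genotypes, pre-plated to take out the feeder cells, were sequenced separately. Which part of Cxxc5 was removed is not stated. A replicate was taken to be a line, since the titles of the embryoid body samples give only genotype, replicate number and day. The p-values rest on the spread between the 2 libraries of a group, pooled per gene over the 6 groups and adjusted by a trend across genes. With replicates read as lines, each genotype was sampled from its 2 lines on all days. The main fit treated the libraries as independent. An exact two-sided permutation test of 2 libraries against 2 cannot go below 0.333, and every p given here comes from a limma fit across all genes tested.

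Genes named Zfp mostly encode proteins with arrays of C2H2 zinc fingers, each finger contacting a few bases of DNA. Many of them also carry a KRAB domain, which recruits KAP1 (Trim28) and, through it, the histone methyltransferase Setdb1 and HP1 proteins, and so silences the sites they bind, often copies of transposable elements. In mice such genes lie in clusters of recently duplicated copies, and one of the largest is on distal chromosome 4. Zfp979 is also named Ssm1b, which in mice is linked to strain-dependent DNA methylation of a transgene. No individual role is given here for the other 3 genes.

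Cxxc5 itself was at 5.05 to 11.9 FPKM in the 6 knockout embryoid body libraries, against 25.1 to 52.3 FPKM in the 6 wild type libraries. It was lower in knockout on each day by limma (adjusted p = 0.0173 on day 0, 0.00412 on day 3 and 4.26e-04 on day 6). Reads from any part of the gene left in place would still count towards these values. The summed FPKM of 4 Y-linked genes and Xist was 2.86 to 11.1 in the knockout libraries, against 16.2 to 31.3 in the wild type libraries. Xist alone did not pass by limma (adjusted p = 0.826 on day 0, 0.880 on day 3 and 0.814 on day 6). The Y-linked genes Eif2s3y, Uty and Ddx3y were lower in knockout on day 6 (limma adjusted p = 0.00107, 0.00134 and 0.00617). On day 3 they differed by −1.94, −1.07 and −1.10 (limma adjusted p = 0.0337, 0.0886 and 0.0906). On day 0 they differed by −1.72, −0.89 and −0.83 (limma adjusted p = 0.0588, 0.156 and 0.191). The part of this difference between the lines in the results below was not tested. At day 0 all 8 pluripotent markers reached 1 FPKM in every library and none of the 7 mesoderm markers did. At day 6 all 7 mesoderm markers reached it in 3 libraries and 6 of 7 did in wild type replicate 1. The embryoid body libraries held an estimated 15.2 to 33.1 M reads.

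The genes lie in 2 clusters of the mm10 genome. In the RefSeq annotation of GRCm38.p6, Zfp534 occupied chr4:147674225-147702631 on the minus strand, and Zfp979 lay 31.7 kb away at chr4:147611936-147642508, also on the minus strand. Zfp987 lay at chr4:146097312-146126624 on the plus strand of the same cluster. Zfp758 lay on chromosome 17, at chr17:22361430-22393909 on the plus strand. All 4 are annotated as protein coding.

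The promoter windows of all 4 genes were found in the RefSeq table of GRCm38.p6, and they are shown because the 3 chromosome 4 genes moved together and the CXXC domain binds CpG. The windows are 300 bases, chr4:147702582-147702881 (minus strand) for Zfp534, chr4:146097062-146097361 (plus strand) for Zfp987, chr4:147642459-147642758 (minus strand) for Zfp979 and chr17:22361213-22361512 (plus strand) for Zfp758. Each is printed 5′ to 3′ on the strand of its gene, with every CG in capitals.
Zfp534: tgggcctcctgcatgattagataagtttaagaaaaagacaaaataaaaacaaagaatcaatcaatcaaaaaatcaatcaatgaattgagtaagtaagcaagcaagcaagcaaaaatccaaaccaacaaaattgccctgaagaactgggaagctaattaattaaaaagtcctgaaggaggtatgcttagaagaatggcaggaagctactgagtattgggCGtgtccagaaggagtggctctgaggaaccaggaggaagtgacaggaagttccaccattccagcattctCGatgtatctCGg
Zfp987: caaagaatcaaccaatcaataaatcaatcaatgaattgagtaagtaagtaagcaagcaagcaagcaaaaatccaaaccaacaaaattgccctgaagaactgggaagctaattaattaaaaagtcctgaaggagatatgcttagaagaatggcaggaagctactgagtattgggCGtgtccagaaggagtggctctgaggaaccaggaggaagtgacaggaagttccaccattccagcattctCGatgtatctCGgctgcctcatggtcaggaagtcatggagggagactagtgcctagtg
Zfp979: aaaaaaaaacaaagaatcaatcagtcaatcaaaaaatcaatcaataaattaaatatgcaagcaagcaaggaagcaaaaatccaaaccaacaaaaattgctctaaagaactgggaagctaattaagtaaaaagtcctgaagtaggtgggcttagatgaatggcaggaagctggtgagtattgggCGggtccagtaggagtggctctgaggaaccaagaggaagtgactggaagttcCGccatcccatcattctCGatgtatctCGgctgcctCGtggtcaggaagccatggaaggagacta
Zfp758: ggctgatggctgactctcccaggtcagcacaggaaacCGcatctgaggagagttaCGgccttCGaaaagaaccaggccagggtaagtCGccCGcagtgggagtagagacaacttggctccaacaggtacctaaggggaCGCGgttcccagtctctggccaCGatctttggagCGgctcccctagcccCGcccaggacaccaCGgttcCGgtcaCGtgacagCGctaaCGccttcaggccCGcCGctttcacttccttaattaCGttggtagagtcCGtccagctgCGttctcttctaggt

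The 3 chromosome 4 promoters were copies of each other, and that of Zfp758 was of another kind. Zfp534 and Zfp987 had 98.8% identical bases over 251 aligned bases, and Zfp979 matched Zfp534 at 91.2% of 260 aligned bases and Zfp987 at 90.9% of 286. Zfp758 aligned to these windows over 92 to 141 bases only. The motif CG, which reads the same on both strands, occurred 3 times in the Zfp534 window, 3 times in that of Zfp987, 5 times in that of Zfp979 and 20 times in that of Zfp758. Of the 27025 RefSeq promoters, 94.2% held at least 1 CG and the median was 7. The 3 chromosome 4 windows thus lay below that median and Zfp758 above it, with 75.0% of promoters holding as many CG as Zfp758 or fewer. Zfp758 has a divergent neighbour, Zfp944, whose transcript starts 63 bases away on the opposite strand, and the promoter of Zfp943 nearby was 100% identical to that of Zfp758 over 292 aligned bases.

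Because these genes are duplicates, the same read can fit several of them. Of the 75-base windows along the GENCODE vM21 transcripts, 87.4% of those of Zfp987 were also found in transcripts of other genes, as were 53.6% for Zfp534, 19.8% for Zfp979 and 1.48% for Zfp758. Zfp987 shared most with Gm8935, Zfp534 with Zfp987, Zfp979 with Zfp978 and Zfp758 with Zfp943. Over windows of 150 bases, the read length of the ESC libraries, the shares were 60.1% for Zfp987, 23.5% for Zfp534, 10.9% for Zfp979 and 0% for Zfp758. The longest transcripts of Zfp534 and Zfp987 had 97.1% identical bases, while every other pair of the 4 lay between 79.7% and 81.9%. The assignment of reads with several matches is not stated. Levels of Zfp534 and Zfp987 in particular are therefore uncertain as levels of single genes, whereas nearly all 75-base windows of Zfp758 were its own.

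**Figure D1:**
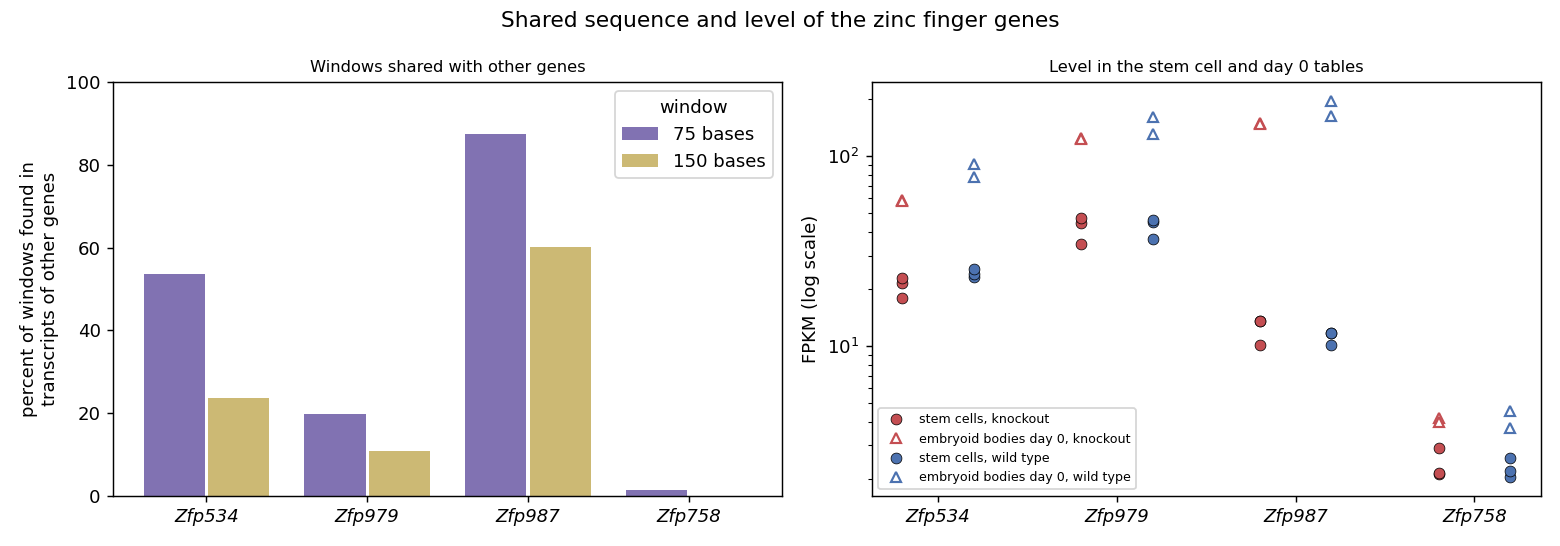
Left, percent of 75-base and 150-base windows of the longest transcript of each gene that also occur in transcripts of other genes. Right, FPKM on a log scale in the ESC table (filled circles, 3 values per genotype) and in day 0 embryoid bodies (open triangles, 2 libraries per genotype), knockout in red and wild type in blue; Zfp987 shares most windows, 87.4% and 60.1%, and has the widest gap between the tables.

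On day 6 all 4 transcripts were close to gone in knockout embryoid bodies and still present in wild type ones. Zfp534 was at 1.21 and 0.604 FPKM in the knockout libraries, against 17.1 and 5.78 FPKM in the wild type libraries. Zfp987 was at 2.67 and 1.3 FPKM in knockout, against 37.2 and 11.2 FPKM in wild type. Zfp979 was at 3.28 and 2.32 FPKM in knockout, against 36.0 and 16.4 FPKM in wild type. In these 3 genes of the chromosome 4 cluster the wild type replicates lay far apart, with wild type replicate 1 the higher in each. Zfp758 was at 0.903 and 0.798 FPKM in knockout, against 6.73 and 6.06 FPKM in wild type, with little spread in either genotype. None of the 4 was at 0 in any knockout library: the knockout values rested on an estimated 49.1 to 235 reads and the wild type values on 461 to 2549.

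As a share of the wild type mean, the knockout mean on day 6 was 7.93% for Zfp534, 8.22% for Zfp987, 10.7% for Zfp979 and 13.3% for Zfp758. The means were 0.908 ± 0.430 in knockout and 11.5 ± 8.02 FPKM in wild type for Zfp534, and 1.99 ± 0.964 in knockout and 24.2 ± 18.4 FPKM in wild type for Zfp987 (SD, n = 2 each). They were 2.80 ± 0.680 in knockout and 26.2 ± 13.8 FPKM in wild type for Zfp979, and 0.851 ± 0.0745 in knockout and 6.40 ± 0.469 FPKM in wild type for Zfp758 (SD, n = 2 each). On the log2(FPKM + 1) scale, which understates changes of low genes, the differences were −2.56 for Zfp534, −2.89 for Zfp987, −2.75 for Zfp979 and −2.0 for Zfp758. Knockout and wild type libraries did not overlap in any of the 4, and neither did they in the lower direction for 29.3% of all 12472 genes tested. Without wild type replicate 1 the shares became 15.7% for Zfp534, 17.7% for Zfp987 and 17.1% for Zfp979, while that of Zfp758 stayed between 12.5% and 14.1% whichever library was left out. The genes just past the choice were Zfp934 at 13.7%, Zfp600 at 15.0% and Zfp985 at 15.1%, the last 2 being chromosome 4 neighbours.

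**Figure D2:**
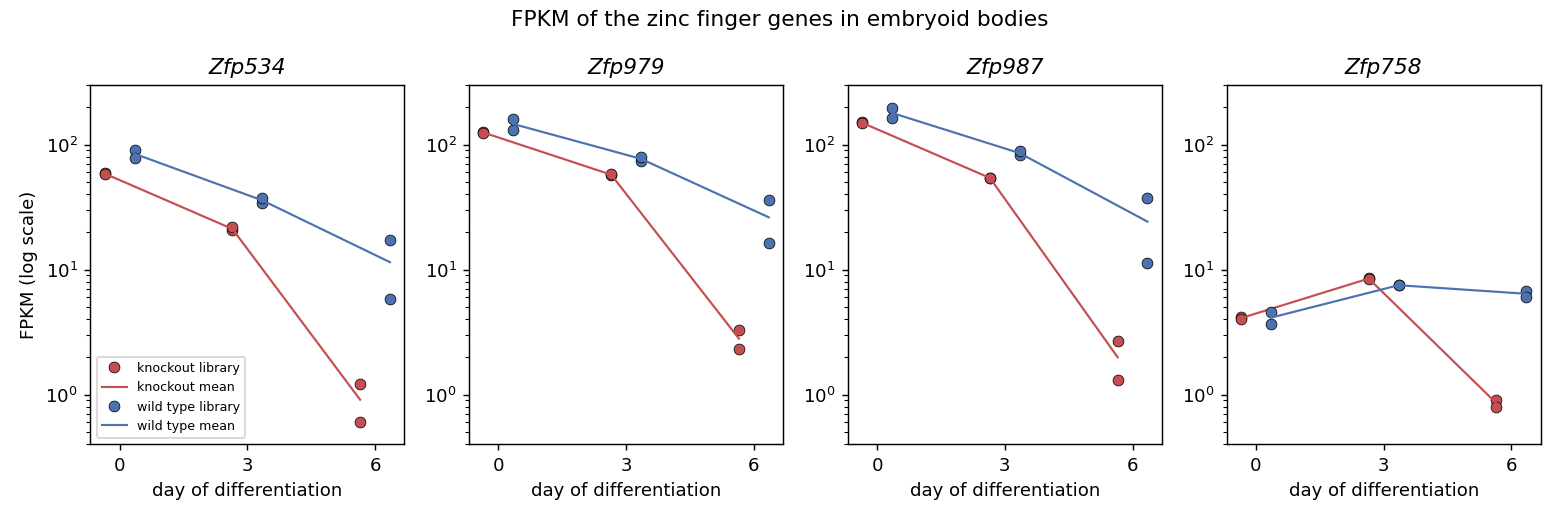
FPKM on a log scale against day of differentiation, 1 panel per gene, with knockout libraries in red, shifted left, and wild type libraries in blue, shifted right, and lines joining the means of 2 libraries. The 3 chromosome 4 genes are lower on day 3 than on day 0 in both genotypes, with knockout values of 0.604 to 3.28 FPKM on day 6; Zfp758 is higher on day 3 than on day 0 in both, and on day 6 is at 6.73 and 6.06 FPKM only in wild type.

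The day 6 libraries also differed in their sums of cell type markers. The 8 pluripotent markers summed to 279.6 and 119 FPKM in knockout replicates 1 and 2, against 502 and 254 FPKM in wild type replicates 1 and 2. The 7 mesoderm markers summed to 429.8 and 492 FPKM in knockout, against 57.2 and 260.3 FPKM in wild type, and the 7 neuroectoderm markers to 52.7 and 25.0 FPKM in knockout, against 106 and 65.6 FPKM in wild type. The 6 endoderm markers summed to 81.2 and 128 FPKM in knockout, against 44.2 and 98.3 FPKM in wild type, with Afp at or near 0 in all 4. The 8 feeder fibroblast markers summed to 16.8 and 31.8 FPKM in knockout, against 8.39 and 15.0 FPKM in wild type. In each genotype, the library with the higher pluripotent and neuroectoderm sums was also the one with the higher level of each of the 4 zinc finger genes. Across genotypes that order did not hold for the pluripotent sum: knockout replicate 1 had a higher sum than wild type replicate 2, and lower levels of all 4 genes. It did hold for the neuroectoderm sum, which was lower in both knockout libraries than in either wild type library. That sum followed the order of the libraries in Zfp534, Zfp979, Zfp987 and Zfp758. The mesoderm and feeder fibroblast sums ran in the exact reverse of that order, and the endoderm sum kept neither. Single markers did not all follow their sums. Nes was at 26.8 FPKM in knockout replicate 1, above the 26.3 FPKM of wild type replicate 2. Between the same libraries, Pou5f1 was at 123 and 118 FPKM, Sox2 at 44.4 and 45.4 FPKM and Nanog at 59.6 and 60.7 FPKM. In bulk libraries, fewer cells of a type and less RNA per cell cannot be told apart, and the part of the cell makeup in the day 6 values was not tested.

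**Figure D3:**
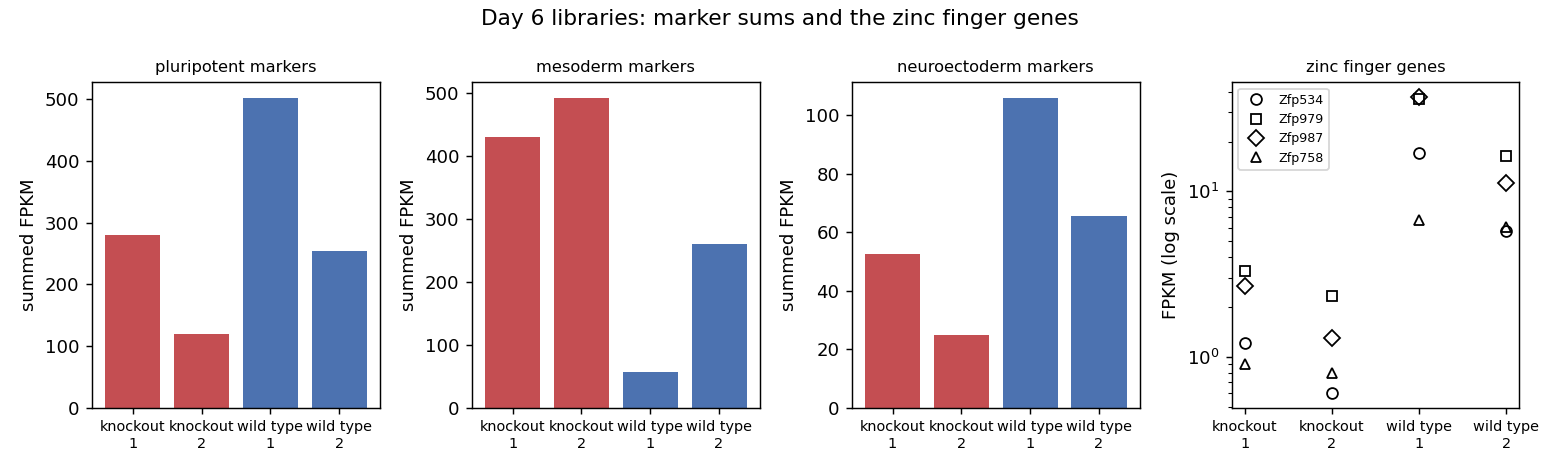
Summed FPKM of pluripotent, mesoderm and neuroectoderm markers (bars, linear scale from 0) and FPKM of the 4 zinc finger genes (symbols, log scale) in the 4 day 6 libraries, knockout left of wild type. Knockout 1 has a pluripotent sum of 279.6, above the 254 of wild type 2, while its zinc finger genes lie below those of both wild type libraries. The neuroectoderm sums, 52.7 and 25.0 in knockout and 106 and 65.6 in wild type, run in the order of the zinc finger genes. The mesoderm sums, 429.8 and 492 in knockout and 57.2 and 260.3 in wild type, run in the reverse order.

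On days 0 and 3, none of the 4 genes passed the threshold between genotypes in the fit that includes the day 6 libraries. The 3 chromosome 4 genes were lower in every knockout library. On day 0, Zfp534 was at 59.1 and 58.0 FPKM in knockout, against 90.8 and 78.1 FPKM in wild type. Zfp987 was at 150.3 and 148 FPKM in knockout, against 195 and 163 FPKM in wild type. Zfp979 was at 126 and 124 FPKM in knockout, against 161 and 131 FPKM in wild type. These 3 were thus abundant transcripts at the start of differentiation, with knockout replicates close together below both wild type replicates. Zfp758 was at 4.17 and 4.0 FPKM in knockout, between the 4.54 and 3.69 FPKM of wild type.

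The limma difference of knockout against wild type on day 0 was −0.52 for Zfp534 (SE 0.37, adjusted p = 0.569), −0.26 for Zfp987 (SE 0.44, adjusted p = 0.850), −0.22 for Zfp979 (SE 0.29, adjusted p = 0.789) and 0.00 for Zfp758 (SE 0.09, adjusted p = 0.999), on the log2(FPKM + 1) scale. By limma 0 of 4 genes were called, at a background of 0.369% of all genes tested, and 0 of 4 had an unadjusted p under 0.05. Non-overlap in the lower direction, seen in 3 of 4, was seen in 25.5% of all genes on that day. The 95% interval of the difference reached from −1.36 to 0.33 for Zfp534 and from −0.21 to 0.20 for Zfp758. Without the day 6 libraries Zfp534 passed on day 0 (limma adjusted p = 0.0395), at a background of 1.15% of genes called lower in that fit.

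On day 3 the 3 chromosome 4 genes were again lower in both knockout libraries, and Zfp758 was higher in both. Zfp534 was at 20.5 and 21.7 FPKM in knockout, against 33.9 and 37.6 FPKM in wild type. Zfp987 was at 54.0 and 54.1 FPKM in knockout, against 81.8 and 88.9 FPKM in wild type. Zfp979 was at 56.8 and 58.0 FPKM in knockout, against 74.5 and 79.1 FPKM in wild type. Both knockout libraries lay below both wild type libraries in each of these, as they did for 31.3% of all genes tested. Zfp758 was at 8.52 and 8.41 FPKM in knockout, against 7.50 and 7.49 FPKM in wild type, higher without overlap, as were 29.0% of all genes.

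The limma difference on day 3 was −0.73 for Zfp534 (SE 0.37, adjusted p = 0.393), −0.65 for Zfp987 (SE 0.44, adjusted p = 0.530), −0.41 for Zfp979 (SE 0.29, adjusted p = 0.543) and 0.16 for Zfp758 (SE 0.09, adjusted p = 0.459). Again 0 of 4 genes were called, at a background of 1.19%, and 0 of 4 had an unadjusted p under 0.05. Zfp534 passed without the day 6 libraries (limma adjusted p = 0.0169) and with libraries weighted per group (limma adjusted p = 0.0383), and Zfp987 without the day 6 libraries (limma adjusted p = 0.0212). The backgrounds of genes called lower in those fits were 1.11% without the day 6 libraries and 4.31% with weights. In knockout as a share of wild type, the means were 69.4% on day 0 and 59.0% on day 3 for Zfp534, 83.3% and 63.3% for Zfp987, 85.4% and 74.7% for Zfp979, and 99.2% and 113% for Zfp758.

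With time the genes took 2 courses. Day 3 over day 0, Zfp534 fell in both genotypes, to 36.1% of its day 0 mean in knockout and 42.4% in wild type (limma log2 change −1.43, adjusted p = 0.0109 in knockout; −1.21, adjusted p = 0.0211 in wild type). Zfp979 fell to 46.0% in knockout and 52.6% in wild type (limma log2 change −1.11, adjusted p = 0.0117 in knockout; −0.91, adjusted p = 0.0254 in wild type). Zfp987 fell to 36.2% in knockout (limma log2 change −1.45, adjusted p = 0.0216) and stood at 47.6% in wild type without passing (−1.06, adjusted p = 0.0678). Zfp758 rose instead, to 207% in knockout and 182% in wild type (limma log2 change 0.90, adjusted p = 8.94e-05 in knockout; 0.74, adjusted p = 2.04e-04 in wild type). The lower calls, 3 of 4 in knockout and 2 of 4 in wild type, stand beside backgrounds of 28.0% in knockout and 30.2% in wild type, and the higher call of Zfp758 beside 24.6% in knockout and 25.5% in wild type. Most calls of the chromosome 4 genes were lost with 1 library fewer in the fit, while their log2 changes kept their direction: leaving out 1 library brought the adjusted p in limma to between 0.0477 and 0.0579 for Zfp534 in knockout and between 0.0581 and 0.0998 in wild type. For Zfp979 it came to between 0.0525 and 0.0581 in knockout and between 0.0501 and 0.131 in wild type, and for Zfp987 in knockout to between 0.0835 and 0.0861. Quantile normalization also ended the calls of Zfp987 in knockout (limma adjusted p = 0.0587) and of Zfp534 (0.0550) and Zfp979 (0.0841) in wild type. For Zfp758 the adjusted p stayed at or below 0.00267 with any 1 library left out, in both genotypes.

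The change with time was not shown to differ between genotypes by day 3. The genotype by day 3 interaction in limma had adjusted p of 0.976 for Zfp534, 0.946 for Zfp987, 0.971 for Zfp979 and 0.860 for Zfp758, so 0 of 4 were called at a background of 0.0401%, and 0 of 4 had an unadjusted p under 0.05. No alternative fit called it for any of the 4 either. The day 6 values, on which the choice of the genes rests, are given here against day 3 without a test. Day 6 means were 4.30% of day 3 in knockout and 32.0% in wild type for Zfp534, 3.68% in knockout and 28.3% in wild type for Zfp987, and 4.88% in knockout and 34.1% in wild type for Zfp979. For Zfp758 they were 10.1% of day 3 in knockout and 85.4% in wild type.

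In undifferentiated ESCs the values of 3 of the 4 genes overlapped between the genotypes. The deposited ESC table gives 3 values per genotype where the labels name 2 samples, so the values could not be matched to lines and carry no test. Zfp534 was at 18.0, 21.5 and 23.0 FPKM in knockout, against 23.1, 24.1 and 25.4 FPKM in wild type, lower without overlap, as were 5.85% of the 11129 genes of that table with a mean FPKM of at least 1. Zfp979 was at 34.4, 44.4 and 47.4 FPKM in knockout, against 36.8, 45.2 and 46.3 FPKM in wild type. Zfp987 was at 10.1, 13.5 and 13.5 FPKM in knockout, against 10.1, 11.7 and 11.7 FPKM in wild type. Zfp758 was at 2.12, 2.16 and 2.90 FPKM in knockout, against 2.05, 2.21 and 2.59 FPKM in wild type. The order of levels, with Zfp979 highest, differed from day 0 embryoid bodies, where Zfp987 was the highest of the 4 in both genotypes. The day 0 mean over the ESC median was 11 in knockout and 15.3 in wild type for Zfp987, but 1.86 to 3.51 for the other 3 genes. The 2 tables were normalized separately and made from reads of different length, single-end in one and paired-end in the other, and the part of this in the Zfp987 level was not tested.

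The genes beside the 4 were tested with the same limma fit over 12472 genes. Within 1 Mb of the chromosome 4 genes, 9 other genes named Zfp passed the expression minimum, and all 9 were lower in knockout on day 6 (9 of 9), at a background of 16.2% of genes called lower, with a median log2 difference of −1.31 against 0.02 for all genes. Without knockout replicate 2 of day 6 the count was 5 of 9, at a background of 9.33%, and with the 4 day 6 libraries alone it was 0 of 9, at 0.120%. Of the 29 tested neighbours there that are not named Zfp, 6 were lower and 7 higher, and the 6 became 2 without knockout replicate 2 and 9 without wild type replicate 2, when 19.4% of all genes were called lower. On chromosome 17, 17 of the 18 other tested genes named Zfp around Zfp758 were lower on day 6 (median −0.99), at least 16 with any 1 library left out and 1 with the day 6 libraries alone. Among all 319 tested genes named Zfp and a number besides the 4, 118 were lower and 36 higher, the higher ones at a background of 17.9%. The 36 became 7 without knockout replicate 2 and 20 without wild type replicate 1, at a background called higher of 6.87% without the first and of 1253 of 12472 genes without the second, and the 118 became 1 with the day 6 libraries alone. Some of these genes share transcript sequence with the 4, so their values are not independent of them. The split is by symbol only, and the genes not named Zfp include zinc finger genes. Of the 29 on chromosome 4, Rex2, of the KRAB list below, differed by −0.94 on day 6 (limma adjusted p = 0.0363). Gm13212, which shares 75-base windows with Zfp534 and Zfp987, differed by −1.16.

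On days 0 and 3, limma called 0 of these 9, of the 18 and of the 319. On day 0, 2 of the 9 had an unadjusted p under 0.05 and were lower, and on day 3, 4 of the 9. Of the 319, 33 were lower and 11 higher at an unadjusted p under 0.05 on day 0, and 39 lower and 13 higher on day 3. Of all 12472 genes, 7.58% were lower and 7.09% higher at that p on day 0, and 6.06% lower and 8.75% higher on day 3. Without the day 6 libraries limma called 3 of the 9 lower on day 0 and 4 of the 9 on day 3, and 3 and 9 of the 319, at the backgrounds of 1.15% and 1.11% given above. With library weights it called 4 of the 9, 1 of the 18 and 33 of the 319 lower on day 3, at a background of 4.31%. The median log2 difference of the 9 was −0.39 on day 0 and −0.33 on day 3, against 0.00 for all genes on both days, while that of the 18 on chromosome 17 was −0.03 on day 0 and −0.13 on day 3.

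Zfp985, 26.7 kb from Zfp979, was at 1.49 and 0.827 FPKM in knockout, against 11.1 and 4.27 FPKM in wild type on day 6. Zfp984, 51.3 kb from Zfp534, was at 4.03 and 3.51 FPKM in knockout, against 12.5 and 9.66 FPKM in wild type, and Zfp982 was at 1.87 and 1.68 FPKM in knockout, against 6.96 and 4.38 FPKM in wild type. All 3 were lower without overlap. Beside Zfp987, Zfp600 was at 0.378 and 0.136 FPKM in knockout, against 2.62 and 0.807 FPKM in wild type, whereas Gm13034 (1.53 and 0.880 FPKM in knockout, 2.72 and 1.07 FPKM in wild type) and Gm13238 (2.71 and 2.72 FPKM in knockout, 5.38 and 2.44 FPKM in wild type) overlapped between genotypes. Beside Zfp758, its divergent partner Zfp944 was at 2.68 and 2.18 FPKM in knockout, against 10.3 and 8.12 FPKM in wild type. Zfp946 was at 3.51 and 2.30 FPKM in knockout, against 15.6 and 10.5 FPKM in wild type, and Zfp994 at 2.33 and 2.24 FPKM in knockout, against 7.64 and 6.73 FPKM in wild type. These 3 were also lower without overlap on day 6.

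**Figure D4:**
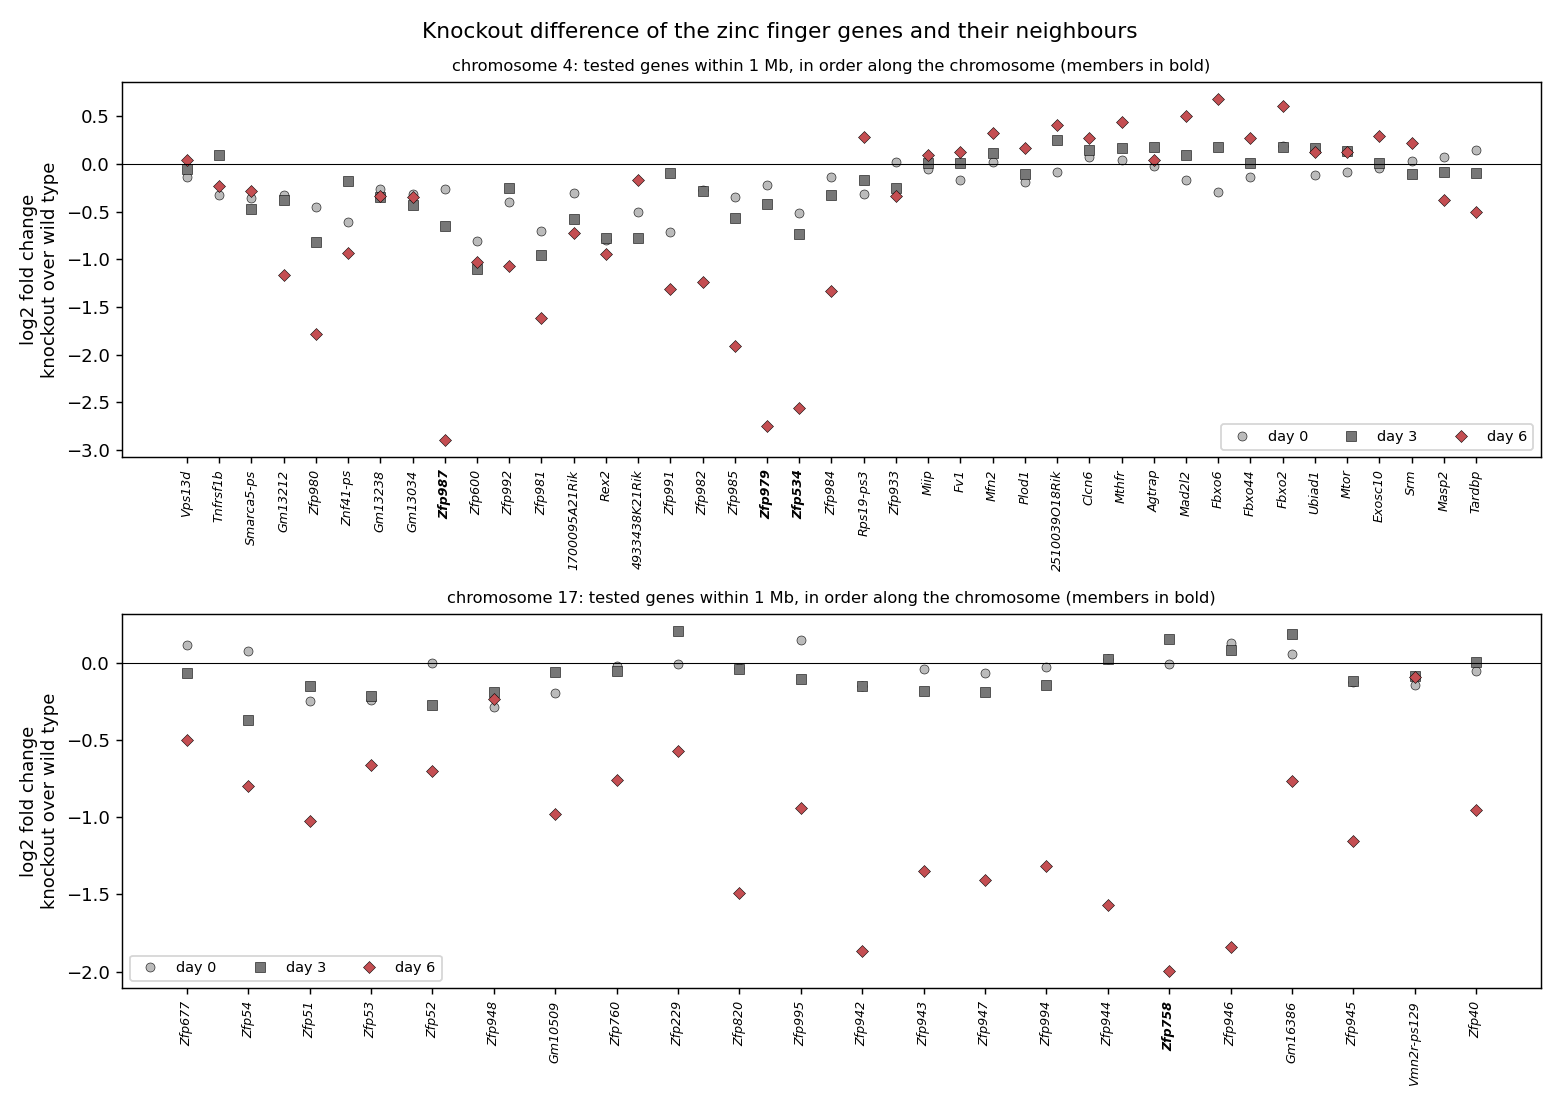
Log2 difference of knockout over wild type on the log2(FPKM + 1) scale for the 4 genes (bold) and every tested gene within 1 Mb, in order along chromosome 4 (above) and chromosome 17 (below), on day 0 (circles), day 3 (squares) and day 6 (diamonds). On day 6, 9 of 9 neighbours named Zfp on chromosome 4 and 17 of 18 on chromosome 17 passed the threshold as lower. Day 6 differences of genes named otherwise on chromosome 4 run from −1.16 (Gm13212) to 0.68 (Fbxo6).

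Some of the partners through which KRAB zinc finger proteins silence DNA were also lower in knockout on day 6. Of 19 genes of the KAP1 complex and its cofactors, 7 were lower and 1 was higher in knockout on day 6 by limma, at backgrounds of 16.2% lower and 17.9% higher, and 0 passed on days 0 and 3. At an unadjusted p under 0.05, 1 was higher on each of those days, at backgrounds of 7.09% on day 0 and 8.75% on day 3. The 7 lower included the HP1 genes Cbx3 (−0.81, limma adjusted p = 6.71e-04) and Cbx5 (−0.34, limma adjusted p = 0.00637). The others of the 7 were Morc3, Fam208a, Pphln1, Smarcad1 and H3f3a, and the 1 higher was Dnmt1 (0.31, limma adjusted p = 0.00410). With the day 6 libraries alone 0 of the 19 passed, at a background of 0.120% of all genes called lower in that fit. Of the 4 genes at the head of the list none passed on day 6: Trim28, which encodes KAP1, differed by −0.04 on day 6 (adjusted p = 0.763), Setdb1 by 0.05 (adjusted p = 0.482), Atf7ip, a cofactor of Setdb1, by −0.27 (adjusted p = 0.0609) and the HP1 gene Cbx1 by −0.07 (adjusted p = 0.670), all in limma. Of 15 tested KRAB zinc finger genes with described targets in mice, 6 were lower and 1 higher on day 6, and the 6 became 3 without wild type replicate 1, when 10.6% of all genes were called lower, and 0 with the day 6 libraries alone. Zfp57, which guards imprinted methylation, differed by −0.05 on day 6 (limma adjusted p = 0.693), Zfp445, a second imprint guardian, by −0.37 (limma adjusted p = 7.91e-04), Zfp809, a repressor of retroviral DNA, by −0.25 (limma adjusted p = 0.196) and Zfp932, which binds endogenous retroviruses, by −1.24 (limma adjusted p = 3.33e-04). Of the 6 lower, Zfp600 (−1.03) and Rex2 (−0.94) are also neighbours of the chromosome 4 genes. They share 7.90% and 7.82% of the 75-base windows of Zfp979. On days 0 and 3, 0 of the 15 passed. At an unadjusted p under 0.05, 4 were lower and 2 higher on day 0, and 4 lower and 1 higher on day 3. The backgrounds of genes lower at that p were 7.58% on day 0 and 6.06% on day 3. Without the day 6 libraries 2 of the 15 were called lower on day 0 and 3 on day 3. The backgrounds of genes called lower in that fit were 1.15% on day 0 and 1.11% on day 3.

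Over the 12 embryoid body libraries the chromosome 4 genes followed one course and Zfp758 another. Pearson's r of log2(FPKM + 1) was 0.997 between Zfp534 and Zfp987, 0.994 between Zfp534 and Zfp979, and 0.998 between Zfp979 and Zfp987. Zfp758 correlated with these 3 at 0.610 to 0.675. The points share their libraries and their days, and the genes share reads, so these values are a description. The tested genes most alike to Zfp534 were Zfp987 (0.997), Zfp985 (0.997) and LOC101056073 (0.995), and to Zfp758 they were Zfp40 (0.991), its divergent neighbour Zfp944 (0.991) and AW549877 (0.977). Zfp979 was most like LOC101056073, Zfp987 (0.998) and Eif5 (0.997), which encodes a translation initiation factor, and Zfp987 was most like Zfp979, LOC101056073 and Zfp534 (0.998, 0.998 and 0.997). Eif5 varied far less, at 60.5 FPKM in knockout and 92.7 FPKM in wild type on day 6, since r measures the shape of a course and not its size. Zfp944 averaged 7.10, 12.4 and 2.43 FPKM in knockout and 6.94, 12.2 and 9.22 FPKM in wild type on days 0, 3 and 6 (Zfp758 averaged 4.09, 8.46 and 0.851 FPKM in knockout and 4.12, 7.49 and 6.40 FPKM in wild type).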

How the data were processed

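Total RNA of 12 embryoid body libraries and of undifferentiated ESCs was sequenced. Per the submitters' processing notes and the labels' protocols, Trim Galore 0.4.1 removed adapters and TopHat2 2.0.13 mapped the reads to mm10. The notes list HTSeq 0.6.1, Cuffdiff and Cufflinks 2.2.1 without a role. Annotation, strand use and the handling of reads with several matches are not stated. The FPKM values were made and scaled between libraries by the authors, per the file headers, and the deposited ESC table also holds estimated counts of fragments per gene, 9.85 to 13.1 M per value set. Those counts were used only to describe depth. ChIP libraries were not analysed here.

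The 4 genes and all lists were chosen with earlier results of these data known. Genes averaging at least 1 FPKM over the 12 libraries (12472) entered a fit of log2(FPKM + 1) by limma 3.58.1 (R 4.3.3) that had 1 mean per genotype and day, a variance trend, two-sided tests and Benjamini-Hochberg adjustment over all 12472 genes; an adjusted p under 0.05 is a call. The fit was tested on simulated data. Named are the 4 genes, the 3 nearest neighbours of each, the first 4 genes of the KRAB and KAP1 lists, Cxxc5 and the 3 genes most alike to each member. Also named are the genes of the KAP1 list called on day 6 and some neighbours not named Zfp. Positions and promoters are from RefSeq GRCm38.p6, in which 23661 genes matched by symbol and 679 by synonym, and 118 did not. Pairwise alignments used Biopython 1.88. Depth was estimated from the FPKM steps of 717 low genes with a single transcript. Alternatives were another pseudocount (0.1), no filter, quantile normalization, fewer libraries, a replicate block, library weights and leaving out each library. Same-numbered replicates were not shown to pair across genotypes or between days 0 and 3.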

Additional observations from a re-analysis of the deposited data

Results flagged for a closer look

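Zfp758 moved in opposite directions in the 2 genotypes between days 0 and 6. Its day 6 mean was 20.8% of the day 0 mean in knockout, with both day 6 libraries below both day 0 libraries, and 155% in wild type, with both day 6 libraries above both day 0 libraries. The difference was not tested, because the gene was chosen on its day 6 values.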

How the results depend on the processing

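The tested differences of the 4 genes kept their direction under every alternative run except that of Zfp758 on day 0, which lay between −0.12 and 0.12 with 1 library left out; calls changed as follows. Genes called between genotypes on day 0 numbered 46, and became 111 with a pseudocount of 0.1, 8 with that day's libraries alone, 360 without the day 6 libraries, 20 with the replicate block, 122 with library weights and 8 to 25 with 1 library left out. On day 3 they numbered 149, and became 84 with no filter, 5 alone, 545 without day 6, 1397 with weights and 14 to 51 with 1 library left out. On day 6 they numbered 4249, and became 20 alone, 2011 with weights and 2021 to 4868 with 1 library left out. The 5 interaction calls became 10 with a pseudocount of 0.1, 9 with no filter, 10 with weights and 8 to 16 with 1 library left out. Between genotypes, Zfp534 was called without the day 6 libraries on day 0 (−0.52) and day 3 (−0.73) and with weights on day 3 (−0.73), and Zfp987 without day 6 on day 3 (−0.65). For day 3 against day 0 in wild type, quantile normalization ended the calls of Zfp534 (−1.03) and Zfp979 (−0.72), and Zfp987 (−1.06) was called alone, without day 6 and with weights; in knockout, quantile normalization ended that of Zfp987 (−1.21). With 1 library left out the log2 changes in wild type were −1.32 to −1.11 for Zfp534 and −1.06 to −0.76 for Zfp979, and in knockout −1.47 to −1.39 for Zfp534, −1.12 to −1.09 for Zfp979 and −1.46 to −1.44 for Zfp987, past the threshold in 1 of these fits only, for Zfp534. A lone sample there is assumed to vary like the other groups. Without the day 6 libraries the log2 differences on days 0 and 3 stayed as in the main fit, and only the estimated spread and its degrees of freedom changed. The cause of the other changes was not tested. Deviations of same-numbered replicates from their group means correlated between genotypes at 0.03 on day 0, 0.08 on day 3 and 0.24 on day 6. Between days 0 and 3 they correlated at −0.01 in knockout and −0.02 in wild type. The numbers were thus not shown to pair the lines across genotypes or across these days, and no call of the 4 genes changed under the block. The pseudocount alternative of the ESC table was not run, since its values carry no test. Depth limits mainly the knockout day 6 values, the lowest on an estimated 49.1 reads.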
